A study of Mus musculus with 6 samples.

Results

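Klf6 and Klf2, a pair of genes of the Kruppel-like transcription factor family, were followed in mouse bone marrow-derived macrophages with and without bacterial lipopolysaccharide (LPS). They were taken as the 2 rows ENSMUST00000000080_at (Klf6) and ENSMUST00000067912_at (Klf2) among 74007 transcript rows, and both rows were present. The pair was selected on the measured log2 difference between LPS and unstimulated arrays, so that difference is described here and not tested. The arrays carry Ensembl transcript identifiers without gene symbols, and the names of these 2 rows were taken as given with the list of members.

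Macrophages were grown from femoral bone marrow of female C57BL/6J mice aged 8 to 12 weeks on normal chow, in medium with recombinant human macrophage colony-stimulating factor (M-CSF) at 50 ng/mL. On day 7, 3 cultures received LPS at 10 ng/mL for 4 h and 3 received none. Per the series text, the cells of every animal (3 in all) were split between both groups. All cells had therefore been differentiated, and were kept, in M-CSF, and the comparison is of stimulated with unstimulated cells of the same kind. RNA from every culture was read on its own Affymetrix mouse exon array, 6 in all, and the deposited values are log2 expression values. Macrophage markers and markers of other marrow cells were not analysed here, because the rows carry no gene symbols. In such bulk RNA, fewer expressing cells and less RNA per cell cannot be told apart.

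Kruppel-like factors share a DNA-binding region of C2H2 zinc fingers at the carboxyl end of the protein and bind GC-rich and CACCC sequences, while the rest of the protein differs between members and recruits activators or repressors. KLF6 was described as an early-response gene in many cell types and, in macrophages, as a factor that works with NF-kB in the transcription of inflammatory genes. KLF2 is known for keeping T cells and endothelium quiescent, and in monocytes and macrophages for restraining NF-kB-dependent transcription. LPS activates NF-kB through the receptor TLR4.

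The regions upstream of both genes are shown so that a reader can compare the sequences before their starts. A link between these sequences and the differences between the groups was not tested. The 250 bases before the start of each gene are from RefSeq (GRCm38.p6, plus strand), at chr13:5861239-5861488 for Klf6 and chr8:72318812-72319061 for Klf2. Capitals mark matches on either strand to the MEF2 pattern CTANNNNTAG, the GC box GGGCGG, the CCAAT box CCAAT, the E-box CACGTG and the Kruppel-like factor pattern CACCC.
Klf6: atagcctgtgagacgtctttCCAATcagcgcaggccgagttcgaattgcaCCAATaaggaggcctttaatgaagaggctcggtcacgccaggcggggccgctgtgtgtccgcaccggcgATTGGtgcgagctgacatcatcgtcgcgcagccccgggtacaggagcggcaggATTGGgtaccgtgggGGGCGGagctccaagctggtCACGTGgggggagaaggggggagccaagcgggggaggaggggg
Klf2: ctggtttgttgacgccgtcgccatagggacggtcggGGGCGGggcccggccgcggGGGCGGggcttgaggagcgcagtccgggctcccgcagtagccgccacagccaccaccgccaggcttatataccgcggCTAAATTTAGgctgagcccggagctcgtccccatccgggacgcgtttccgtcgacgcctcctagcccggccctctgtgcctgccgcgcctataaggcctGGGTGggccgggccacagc
The Klf6 sequence held 4 CCAAT boxes, at 230, 200, 131 and 78 bases before the start, 1 GC box at 63 and 1 E-box at 43, none overlapping another motif searched. The Klf2 sequence held 2 GC boxes, at 214 and 195, 1 CACCC match at 19 and 1 MEF2 match, CTAAATTTAG, at 118. MEF2 factors are known to drive Klf2 transcription through a site of this kind in its promoter. The MEF2 pattern occurred at least 1 time in 3.20% of the 32851 promoter windows of the same length. For the E-box this share was 6.02%, for the GC box 32.7%, for the CCAAT box 33.8% and for CACCC 52.0%. The loose NF-kB pattern GGGNNNNNCC was found at least 1 time in 45.8% of all windows. None of these shares gives a background for a number of matches. The NF-kB pattern was found 1 time in the window of Klf6 and 5 times in that of Klf2. In Klf2, 3 of the NF-kB matches overlapped a GC box, 1 the MEF2 match and 1 the CACCC match. Those 3, at 214, 213 and 209 bases before the start, also overlapped one another and are not separate sites. GC content was 64.8% for Klf6 and 71.2% for Klf2, against a median of 52.4%. The motifs were picked with the sequences in view, and a match is a string of letters and no evidence that a factor binds there.

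Klf6 was higher on every LPS array than on any unstimulated array. Its log2 expression was 11.20, 11.12 and 11.28 on unstimulated arrays 1, 2 and 3, and 12.35, 12.23 and 11.74 on LPS arrays 1, 2 and 3. LPS array 3 was the lowest of its group, and it still stood 0.46 above the highest unstimulated array. The mean of the unstimulated arrays was 11.20 ± 0.079 and that of the LPS arrays 12.11 ± 0.32 (SD, n = 3 each). The LPS mean was higher by 0.91 ± 0.16 (SE), which is 1.87-fold on the deposited scale.

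Klf2 was lower on every LPS array than on any unstimulated array, by a smaller amount. Its log2 expression was 8.74, 8.71 and 8.86 on unstimulated arrays 1, 2 and 3, and 8.41, 8.34 and 8.53 on LPS arrays 1, 2 and 3. The gap between the highest LPS array and the lowest unstimulated array was 0.17. The mean of the unstimulated arrays was 8.77 ± 0.081 and that of the LPS arrays 8.43 ± 0.10 (SD, n = 3 each). The difference was -0.35 ± 0.073 (SE), which is 1.27-fold lower on the deposited scale. In the deposited values, then, neither gene's groups overlapped. Over all rows the groups did not overlap in 14.9% with LPS higher and in 29.6% with LPS lower, so a separation of this kind was common in these arrays. As further background, limma called 8.75% of all rows higher and 23.2% lower at an adjusted p under 0.05, and nothing is read from these shares for genes selected on this contrast.

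**Figure D1:**
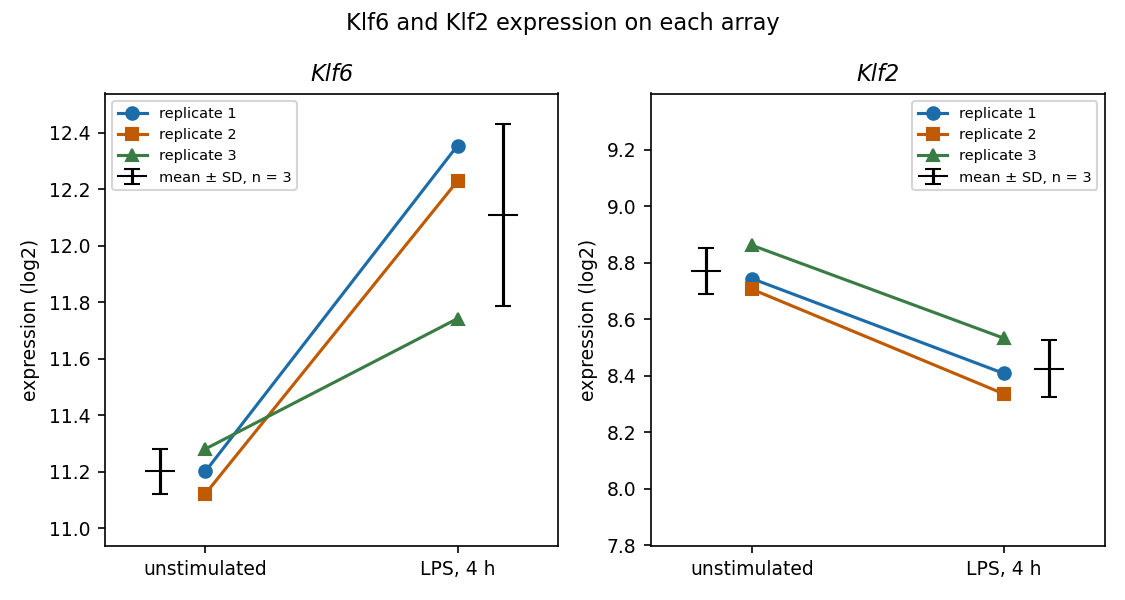
Log2 expression of Klf6 (left) and Klf2 (right) on each of 6 arrays, with lines joining the unstimulated and LPS arrays of the same replicate number and black marks giving the group mean ± SD (n = 3). Both panels span the same range of log2 units; the Klf6 lines of replicates 1 and 2 rise more steeply than that of replicate 3, and the 3 Klf2 lines run nearly parallel.

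The unstimulated arrays spread alike for both genes, with SDs of 0.079 for Klf6 and 0.081 for Klf2, while the LPS arrays spread more for Klf6, at 0.32, than for Klf2, at 0.10. The wide LPS spread of Klf6 came with a low value on LPS array 3. That arrays of the same number come from the same animal is an assumption. Within same-numbered pairs of arrays, Klf6 was higher with LPS by 1.15, 1.11 and 0.46 log2 units in replicates 1, 2 and 3, or 2.22-fold, 2.15-fold and 1.38-fold. The Klf2 differences were -0.34, -0.37 and -0.33, with an SD of 0.022 against 0.39 for Klf6. In both groups Klf2 was highest in replicate 3 and lowest in replicate 2, so that its spread between cultures followed the replicate number. Klf6 had the same order without LPS but was lowest in replicate 3 with LPS.

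LPS array 3 lay farthest from its group mean for Klf6, by -0.37. Without it the Klf6 difference was 1.09 ± 0.075 (SE), against 0.78 ± 0.15 without LPS array 1 and 0.85 ± 0.18 without LPS array 2. With both arrays of replicate 3 left out it was 1.13 (SE 0.082). The within-group SD of Klf6, 0.24, lay above 82.9% of those in its level bin, where the median was 0.15. Levels here are bins of equal size by mean expression over the 6 arrays, 10 in all, and Klf6 was in bin 10, the brightest. The within-group SD of Klf2, 0.091, was below the median of 0.13 of its own bin, bin 7.

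LPS array 3 also read low for many other rows with a difference near that of Klf6. Among the 1333 rows with a mean difference between 0.7 and 1.1, LPS array 3 was the lowest LPS array in 55.7%, LPS array 1 in 31.3% and LPS array 2 in 13.0%. These shares were not computed over all rows, so whether they belong to rows with such a rise was not tested. The upper quartile over all rows was 8.93, 8.99 and 8.89 on LPS arrays 1, 2 and 3. The median difference of these rows was 0.92, 0.94 and 0.77 in replicates 1, 2 and 3. Klf6 went further than most of them: its difference in replicate 3 was 0.41 of the mean of the other two, against a median of 0.82, and 6.38% of these rows had a ratio as low or lower. The part of LPS array 3 as a whole in the low Klf6 value was not tested.

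**Figure D2:**
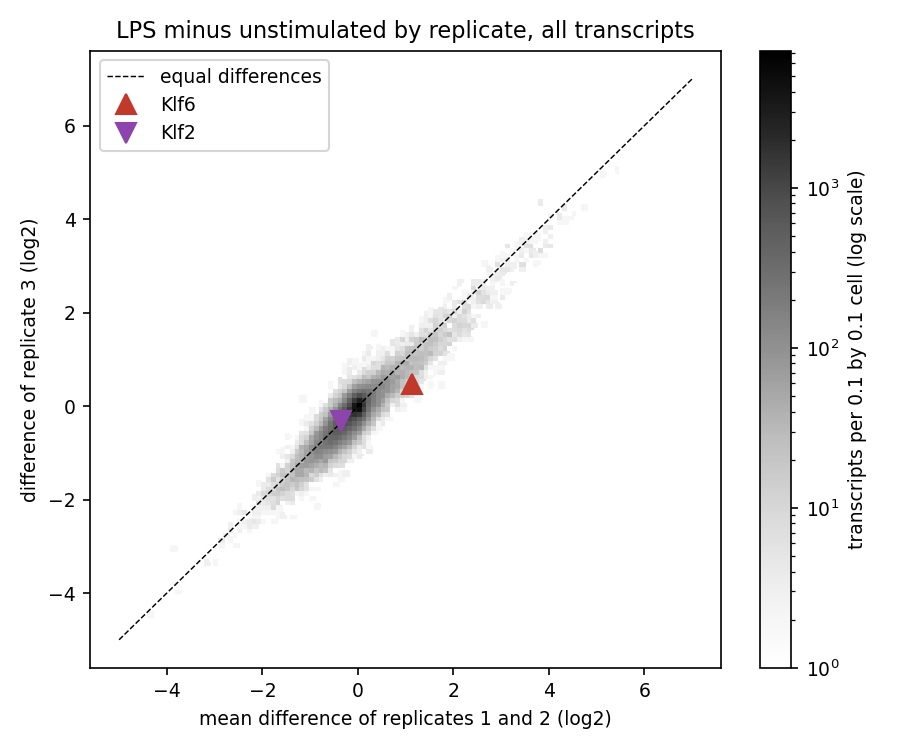
Difference between LPS and unstimulated arrays (log2) in replicate 3 against the mean of replicates 1 and 2, for all 74007 rows, with grey shading giving the number of rows per cell and the dashed line marking equal differences. Klf6 lies below the line, at 0.46 in replicate 3 against 1.15 and 1.11 in the others, and Klf2 lies close to it.

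Set against all rows, the difference of Klf6 was near the top and that of Klf2 was in a crowded range. A difference above that of Klf6 was seen in 2495 rows, or 3.37% of all. A difference below that of Klf2 was seen in 14837 rows, or 20.0%. The difference of Klf6 stood above those of 97.3%, 97.1% and 93.7% of rows in replicates 1, 2 and 3, and so was lowest in replicate 3. That of Klf2 stood above those of 20.1%, 18.2% and 24.0%.

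Rows of the same brightness as Klf2 were themselves lower with LPS. The median difference of the 7400 rows of bin 7, with mean levels from 8.30 to 8.77, was -0.23, with quartiles of -0.53 and 0.0086, and 39.7% of these rows had a difference as low as that of Klf2 or lower. The Klf2 difference was -0.11 once the median of its bin was subtracted, and this subtraction was chosen after the data had been seen. In bin 10, with mean levels from 10.1 to 14.2, the median difference was -0.072 with quartiles of -0.32 and 0.29, and the difference of Klf6 was above that of 88.0% of its 7401 rows. Subtracting that median left Klf6 at 0.98.

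**Figure D3:**
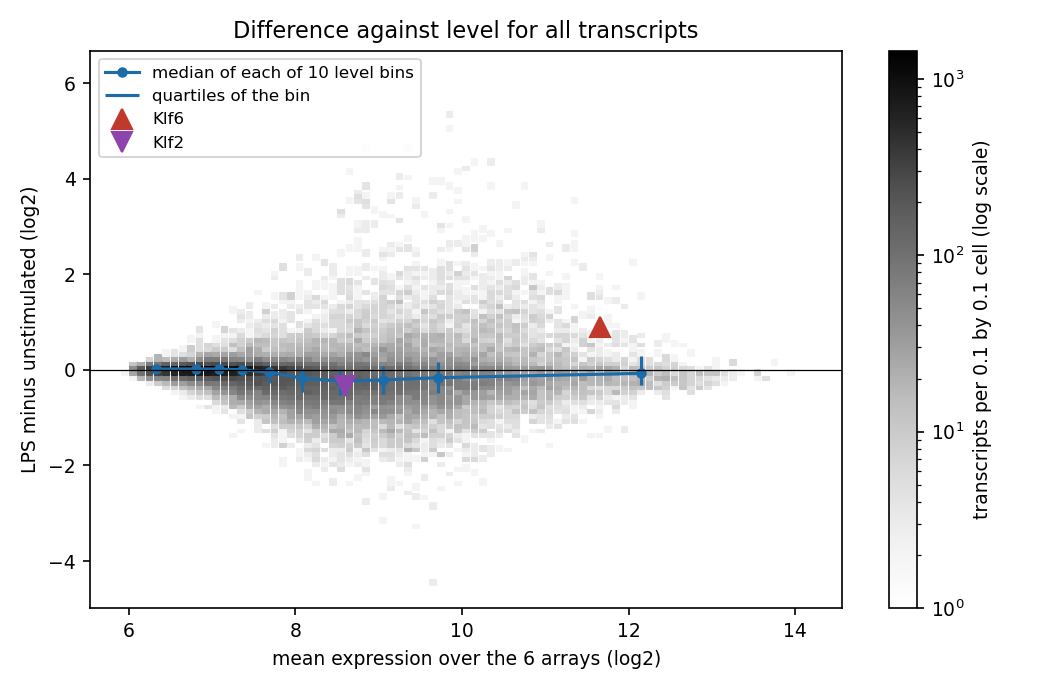
Difference between LPS and unstimulated means (log2) against mean expression over the 6 arrays (log2), for all 74007 rows, with grey shading giving the number of rows per cell. Blue points and bars give the median and quartiles of 10 level bins, drawn at the middle of each bin's range; Klf2, at -0.35, lies within the quartiles of its bin and Klf6, at 0.91, above those of its own.

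The size of the Klf2 difference depended on the scaling of the arrays. The array medians differed by -0.15 between groups, but the median difference of single rows was -0.022. The lower quartiles were alike, at 7.05 to 7.08 in both groups, so median centring moves dim rows that had differed little. Whether the lower middle of the LPS arrays reflects the cells or the measurement cannot be told apart in these values. With each array centred on its median, the Klf2 difference was -0.20 ± 0.075 (SE) and the groups stayed apart. After quantile normalization it was -0.12 ± 0.084, after cyclic loess -0.12 ± 0.081 and with the arrays centred on rows above the median level -0.16 ± 0.089 (SE). Under each of the last 3 settings the groups overlapped. After cyclic loess normalization the Klf2 values were 8.67, 8.59 and 8.75 on the unstimulated arrays and 8.54, 8.42 and 8.68 on the LPS arrays, so that LPS array 3 stood above unstimulated arrays 1 and 2. The differences within replicates were then -0.13, -0.16 and -0.073, each of them negative. They were -0.13, -0.17 and -0.063 after quantile normalization. With the arrays centred on rows above the median level they were -0.16, -0.23 and -0.097. The SEs in this paragraph come from the fit by group alone, which does not use the pairing by replicate number. A paired fit was not run under these scalings.

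Relative to its size, the Klf6 difference moved less with scaling than that of Klf2, though its span in log2 units was not smaller. It lay between 0.78 after quantile normalization and 1.09 after centring on the rows above the median level, and the groups did not overlap under any of these scalings. In replicates 1, 2 and 3 it was 1.02, 0.96 and 0.37 after quantile normalization and 1.28, 1.26 and 0.63 with median centring. It was 1.22, 1.16 and 0.54 after cyclic loess and 1.32, 1.25 and 0.69 with centring on the rows above the median level. Replicate 3 thus had the smallest Klf6 difference under each of these scalings. An offset of 16 on the linear scale gave 0.90 for Klf6 and -0.33 for Klf2. The median differences of bin 7 and bin 10 were unequal, so a shift that depends on level does not cancel between the 2 genes. The change of Klf6 exceeded that of Klf2 by 1.49, 1.48 and 0.79 log2 units in replicates 1, 2 and 3, with a mean of 1.25 ± 0.40 (SD, n = 3), which is a description of genes selected on these values.

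**Figure D4:**
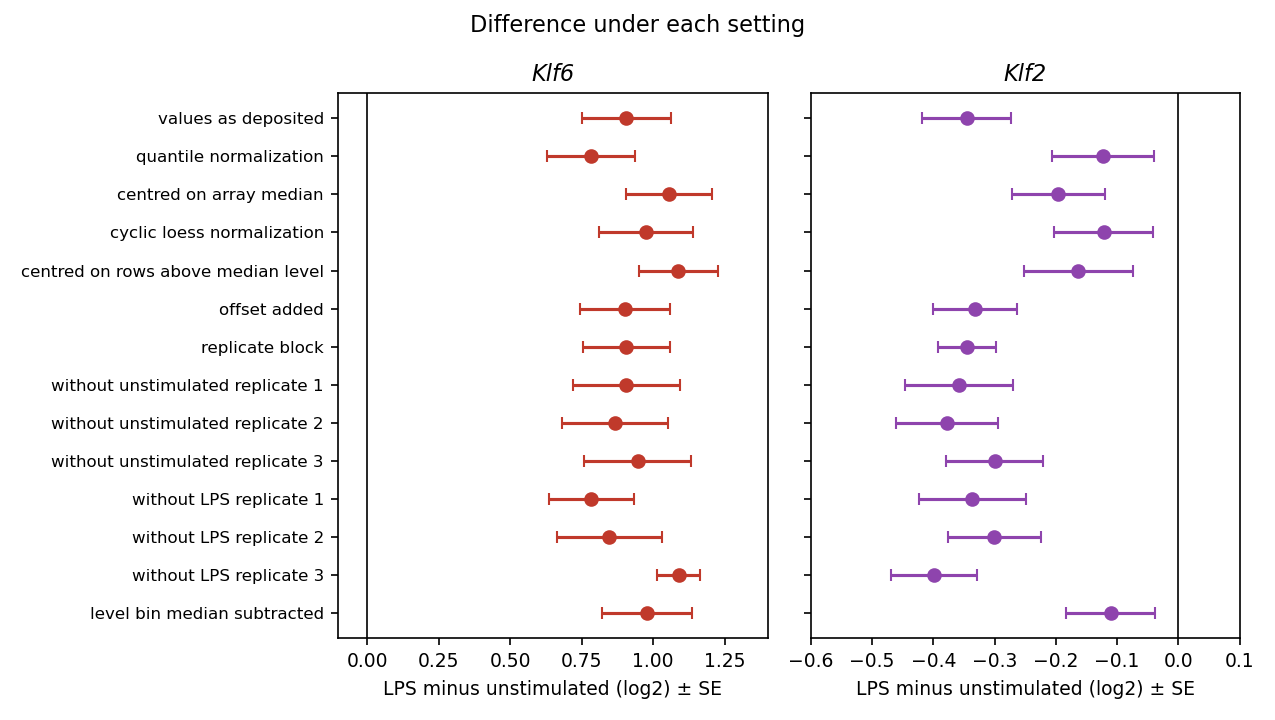
Difference between LPS and unstimulated means (log2, with bars of ± 1 SE) for Klf6 (left) and Klf2 (right) under the settings plotted, which do not include leaving out both arrays of a replicate, on x axes of different scale. Klf6 stays between 0.78 and 1.09, and Klf2 lies between -0.20 and -0.11 under quantile, median and cyclic loess scaling, centring on brighter rows and subtraction of its level bin, against -0.35 as deposited.

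Rows with a pattern close to each gene were sought by the Euclidean distance between row-centred log2 values over the 6 arrays. The rows nearest to Klf6 were ENSMUST00000039540_at and ENSMUST00000110253_at, at a distance of 0.13. These share all 6 values and are a single measurement, which went from 8.84 ± 0.053 to 9.69 ± 0.35 (SD, n = 3 each) with differences of 1.16, 0.96 and 0.43 in replicates 1, 2 and 3. Their small difference in replicate 3 follows from the choice, since LPS array 3 enters the distance. The rows nearest to Klf2 were ENSMUST00000095438_at, at a distance of 0.058 with differences of -0.29, -0.36 and -0.28, and ENSMUST00000032741_at, at 0.064 with differences of -0.35, -0.40 and -0.31. Small distances are easier to reach for rows that change little. No other row shared all values with Klf6 or with Klf2. The files do not pair these rows with gene symbols, so a neighbour may be another transcript of the same gene.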

How the data were processed

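The deposited values are log2 expression values, 1 per transcript-level probe set and array, made by the authors with PLIER and Affymetrix Power Tools, per the submitters' processing notes and the series text. Normalization between arrays, any offset, the probe-set annotation and the genome build were not given in the sources used here. Of the 74007 rows, 0 matched an Ensembl identifier in the RefSeq gene table, which holds none, so the lists of Kruppel-like factors, linked genes and cell type markers were not run. Both promoters were matched by symbol.

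Arrays were grouped by title. Differences and SEs came from limma 3.58.1 (R 4.3.3, lmFit and eBayes, group only) on all rows as deposited, with no further normalization. A call was a Benjamini-Hochberg adjusted p under 0.05. The script was tested on simulated data. The members, lists and rules were chosen with earlier results of these data known. The named rows were both members and the 2 rows nearest to each. Same-numbered arrays were taken to come from the same animal, from the series text read with the titles, and no label states it. Their deviations from group means correlated at 0.50, 0.30 and 0.12 across rows, although LPS array 3 correlated at 0.21 with unstimulated array 2. Pearson's r across rows was 0.986 to 0.993 within groups and 0.910 to 0.926 between them. Precision is limited by the number of arrays. The alternatives tried were scaling, an offset, a replicate block, filters on rows, eBayes settings and leaving out arrays. Figures were drawn with matplotlib 3.10.9.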

Additional observations from a re-analysis of the deposited data

How the results depend on the processing

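The mean of Klf6 stayed higher and that of Klf2 lower with LPS under each of the 16 other settings run for them. The Klf2 groups overlapped after quantile normalization, after cyclic loess and with centring on the rows above the median level. Scaling moved Klf2 by more than its replicate spread, from -0.35 to -0.12 with quantile normalization, -0.20 with median centring, -0.12 with cyclic loess, -0.16 with centring on the rows above the median level and -0.11 with its level bin subtracted. Leaving out 1 array gave 0.78 to 1.09 for Klf6 and -0.40 to -0.30 for Klf2. Leaving out both arrays of a replicate, added later, gave 0.78 to 1.13 and -0.35 to -0.33. With the replicate block the differences were the same, 0.91 and -0.35, and the SE went from 0.16 to 0.15 for Klf6 and from 0.073 to 0.047 for Klf2. Of all rows, limma called 6472 higher (8.75%) and 17195 lower (23.2%), and 7210 and 19074 with the block. Higher calls became 9768 with quantile normalization, 23708 with median centring, 10499 with cyclic loess, 25171 with centring on rows above the median level and 1072 with limma's treat against 2-fold. Lower calls became 12731 with quantile normalization, 11887 with median centring and 11053 with cyclic loess. They were 10827 with centring on rows above the median level and 515 with treat. The other filters and eBayes settings kept these counts within 1.5 times, and leaving out 1 array gave 5234 to 6505 higher and 13146 to 15536 lower. The cause was not tested. Without a detection level, a dim signal limits how far a fall can be read.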
